A study of Mus musculus with 8 samples.

Results

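The miR-130 and miR-301 family of microRNAs was followed through small RNA libraries of immortalized mouse skin fibroblasts. Its members were taken as the rows of the normalized small RNA count table typed as microRNAs whose name was mmu-miR-130a, mmu-miR-130b, mmu-miR-301a or mmu-miR-301b, with either arm of the hairpin (the species prefix mmu is left out below). This gave 8 features of 2403 in the table and of 813 microRNAs, namely the 5p and the 3p arm of each of the 4 microRNAs. The libraries came from cells of mir210lox/lox mice, titled KO, and of wild-type mice, titled WT, both C57BL/6 and both immortalized. Each genotype was held for 24 h in hypoxia (1% O2) or in normoxia (21% O2), so the 4 groups were KO hypoxia, KO normoxia, WT hypoxia and WT normoxia, with 2 libraries in each, numbered 1 and 2. The labels do not say how the cells were immortalized, how the lox allele was recombined or how many animals or cultures stand behind a group, so the p-values below measure the spread between libraries, which may be technical.

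MicroRNAs are cut from a hairpin whose arms can each be loaded into an Argonaute protein, where bases 2 to 8 of the loaded strand, the seed, pair with target messenger RNAs and lower their output. The 3p arms of miR-130a, miR-130b, miR-301a and miR-301b share a seed and so can pair with overlapping sets of targets. Among the targets described for the family are the adipogenic receptor PPARG in human and rodent cells and the homeobox gene MEOX2 in human endothelial cells, and the family has been described as raised by low oxygen in cells of the lung vessels.

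The labels were checked by miR-210, which the floxed allele is named for and which hypoxia-inducible factor is known to raise. The miR-210-3p arm held 10 and 32 in the KO hypoxia libraries and 23 and 14 in KO normoxia, against 36738 and 39011 in WT hypoxia and 4786 and 8676 in WT normoxia. The KO and WT titles therefore matched its level in 8 of 8 libraries, and the oxygen labels could be checked by it in WT cells alone. The values are the authors' normalized read counts, rounded to whole numbers. They summed to 8618630 to 12167438 per library, and 1 read was worth 0.826 to 1.138 units. The 8 features typical of fibroblasts and other mesenchymal cells, led by miR-21-5p, took 41.7% to 50.4% of a library. Markers of other cell types took smaller shares. These were 0.000988% to 0.00167% for the 2 endothelial arms and 0.00872% to 0.0310% for 6 haematopoietic arms. They were 0.00104% to 0.00260% for 7 epithelial arms, 0.00112% to 0.00294% for 4 muscle arms and 0.00550% to 0.00985% for 4 neural arms. Of these features, 0 stood at 0 in every library. The 8 arms of the family took 0.0147% to 0.0204% of a library, which lies within the range of the haematopoietic arms. The ribosomal RNA share was 5.76% in KO hypoxia number 1, against 1.69% to 2.88% in each of the others.

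The sequences show why the 3p arms form a family and the 5p arms do not. For 7 of the 8 arms the mature sequence was found in RefSeq (GRCm38.p6). For miR-301b-3p the sequence of the deposited table is shown, which begins 1 base before the mature start used for the others. The deposited sequences of the other 7 arms likewise hold 1 base more at each end than those of RefSeq shown here. Capitals mark the seed.
miR-130a-3p: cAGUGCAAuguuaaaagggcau
miR-130b-3p: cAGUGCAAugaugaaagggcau
miR-301a-3p: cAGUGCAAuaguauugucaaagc
miR-301b-3p: gcAGTGCAAtggtattgtcaaagca
miR-130a-5p: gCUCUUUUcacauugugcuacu
miR-130b-5p: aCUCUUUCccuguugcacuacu
miR-301a-5p: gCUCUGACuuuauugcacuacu
miR-301b-5p: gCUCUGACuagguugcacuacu
All 4 of the 3p arms hold the same 7 letters in the seed. Of the 813 microRNA sequences in the table, these 4 are the ones that hold AGTGCAA. RefSeq lists 7 mature mouse microRNAs with this seed, of which miR-130a-3p, miR-130b-3p and miR-301a-3p had rows here. The other 4, miR-130c, miR-721, miR-6341 and miR-6389, were not analysed here, and neither was miR-454.

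Past the seed the 3p arms fall into 2 pairs. Counted from 1 at the 5′ end of the mature strand over 22 positions, miR-130a-3p and miR-130b-3p were identical at 20 positions and differed by U11A and A13G, with the base of miR-130a-3p given first. The arms miR-301a-3p and miR-301b-3p were identical at 21 positions and differed by A10G. Across the pairs, 11 to 13 of 22 positions were identical. On the 5p side, miR-301a-5p and miR-301b-5p shared a seed, while those of miR-130a-5p and miR-130b-5p each differed from it and from each other. How reads that match both members of a pair were assigned was not given in the sources at hand, so a part of the counts within a pair may have been split or shared.

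The 4 hairpins lie at 3 places in the genome (GRCm38.p6). The hairpin Mir130a is on chromosome 2 (84741115 to 84741178, minus strand) and overlaps no other annotated gene of GENCODE M21. Mir301, the hairpin of miR-301a, is on chromosome 11 (87113004 to 87113089, plus strand) in an intron of Ska2, which encodes a protein of the spindle and kinetochore. Mir130b (17124061 to 17124142) and Mir301b (17124400 to 17124496) are both on the minus strand of chromosome 16, 257 bases apart, in an intron of the protein-coding gene 2610318N02Rik. The coordinates in the deposited table differ from these and belong to another build, which the table does not name. The hairpins of this pair are shown because they are neighbours whose products were found at different levels. Capitals mark the stretches listed in the table as the 5p and the 3p arm.
Mir130b: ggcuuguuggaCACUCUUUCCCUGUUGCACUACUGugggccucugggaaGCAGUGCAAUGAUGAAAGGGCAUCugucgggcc
Mir301b: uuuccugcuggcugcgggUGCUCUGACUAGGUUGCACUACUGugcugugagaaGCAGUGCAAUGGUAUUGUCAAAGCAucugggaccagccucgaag

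The family spanned a wide range of levels, with 1 abundant hairpin and 1 that was barely detected. Each feature is listed with 24 or 25 bases, so the counts of different arms are set side by side without a length correction. How evenly the library preparation captured the different arms was not tested, which also limits the ratios of arms given below. The most abundant was miR-130a-3p, which held 787 and 724 in KO hypoxia, 711 and 804 in KO normoxia, 822 and 1008 in WT hypoxia, and 671 and 873 in WT normoxia. Its mean of 800.0 over the 8 libraries placed it 162nd among the 813 microRNAs of the table, and its highest library held 1.50 times its lowest.

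The opposite arm, miR-130a-5p, held 661 and 505 in KO hypoxia, 511 and 364 in KO normoxia, 610 and 552 in WT hypoxia, and 573 and 528 in WT normoxia. It lay below miR-130a-3p in 8 of 8 libraries, and the ranges of the 2 arms over the libraries did not overlap. The arm miR-301a-3p held 158 and 183 in KO hypoxia, 143 and 115 in KO normoxia, 121 and 189 in WT hypoxia, and 152 and 247 in WT normoxia. It was lower than miR-130a-5p in 8 of 8 libraries, again with no overlap.

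The next 3 arms lay close together below it. The arm miR-130b-5p held 142 and 164 in KO hypoxia, 135 and 75 in KO normoxia, 71 and 91 in WT hypoxia, and 86 and 76 in WT normoxia. The arm miR-301a-5p held 85 and 69 in KO hypoxia, 48 and 78 in KO normoxia, 66 and 80 in WT hypoxia, and 47 and 99 in WT normoxia. The third, miR-130b-3p, held 131 and 58 in KO hypoxia, 49 and 82 in KO normoxia, 45 and 48 in WT hypoxia, and 35 and 72 in WT normoxia. The ranges of these 3 arms overlapped. The order by mean held in 6 of 8 libraries between miR-130b-5p and miR-301a-5p and in 5 of 8 between miR-301a-5p and miR-130b-3p. The value of 131 for miR-130b-3p in KO hypoxia number 1 stood apart from its other 7, the highest of which was 82. This is the library with the high ribosomal RNA share, whose part in the value was not tested.

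Both arms of miR-301b were near the limit of detection. The arm miR-301b-3p held 4 and 2 in KO hypoxia, 0 and 0 in KO normoxia, 1 and 8 in WT hypoxia, and 4 and 4 in WT normoxia. The arm miR-301b-5p held 0 and 1 in KO hypoxia, 1 and 1 in KO normoxia, 2 and 0 in WT hypoxia, and 3 and 1 in WT normoxia. Taking 3 normalized counts over the library total, a count of 0 allows a share of up to 3.48e-05% in KO normoxia number 1. In KO normoxia number 2 it allows up to 2.91e-05% (counting error only in both). A read was worth 1.138 units in number 1 and 1.055 in number 2 of this group, so bounds from 3 reads would be higher. Summed over the 8 libraries, miR-301b-3p held 23 and miR-301b-5p 9, against 520 for miR-130b-3p and 840 for miR-130b-5p from the hairpin beside it. Neither arm of miR-301b reached 10 in any library. They were left out of the tests for that reason. When all 2403 features were fitted with no filter, neither arm was called in any comparison (limma). The arm miR-301b-3p, at 0 in both KO normoxia libraries, had an unadjusted p of 0.0125 for KO normoxia against WT normoxia (adjusted p = 0.413), where 11.5% of all features were under 0.05. For KO hypoxia against KO normoxia its unadjusted p was 0.0284 (adjusted p = 0.839), where 5.16% of all features were under 0.05, and for KO against WT averaged over oxygen levels it was 0.0462 (adjusted p = 0.348), where 13.7% were. These rest on at most 8 normalized counts in a library.

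**Figure D1:**
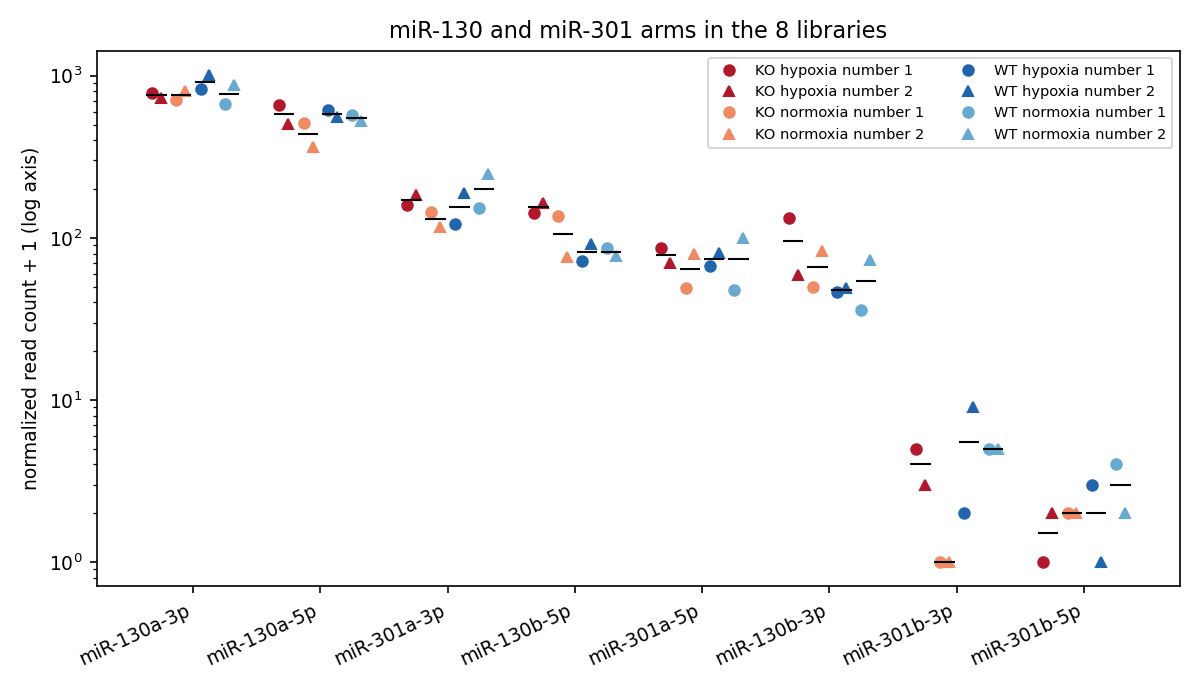
Normalized read count plus 1 (log axis) of the 8 arms, with 1 point per library (circle number 1, triangle number 2) and a black line at each group mean, for KO hypoxia, KO normoxia, WT hypoxia and WT normoxia from left to right. The arm miR-130a-3p lies between 671 and 1008 in every library, and both arms of miR-301b lie at 8 or below.

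Most of the counts with the shared seed came from miR-130a-3p. The 4 arms that carry it summed to 1080 and 967 in KO hypoxia, 903 and 1001 in KO normoxia, 989 and 1253 in WT hypoxia, and 862 and 1196 in WT normoxia. These sums overlapped among the groups, and in bulk RNA fewer cells of a type and less RNA per cell cannot be told apart. The sums had means of 1024 ± 79.9 in KO hypoxia, 952 ± 69.3 in KO normoxia, 1121 ± 187 in WT hypoxia and 1029 ± 236 in WT normoxia (SD, n = 2 each). Of the sum, miR-130a-3p made up 72.9% to 83.1%, miR-301a-3p 11.5% to 20.7%, miR-130b-3p 3.83% to 12.1% and miR-301b-3p 0% to 0.639%. The highest share of miR-130b-3p was again that of KO hypoxia number 1. All 8 arms together took 0.0147% to 0.0204% of a library. The share was 0.0179% ± 0.00359 in KO hypoxia, 0.0166% ± 0.00271 in KO normoxia, 0.0169% ± 0.000891 in WT hypoxia and 0.0163% ± 0.000403 in WT normoxia (SD, n = 2 each). In the highest library, KO hypoxia number 1, the 95% exact binomial interval was 0.0195% to 0.0213%, and in the lowest, KO normoxia number 2, it was 0.0140% to 0.0155%. These intervals treat normalized counts as reads and cover counting error only. Both libraries are of KO cells, so the spread within that genotype was as wide as that over all 8 libraries.

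**Figure D2:**
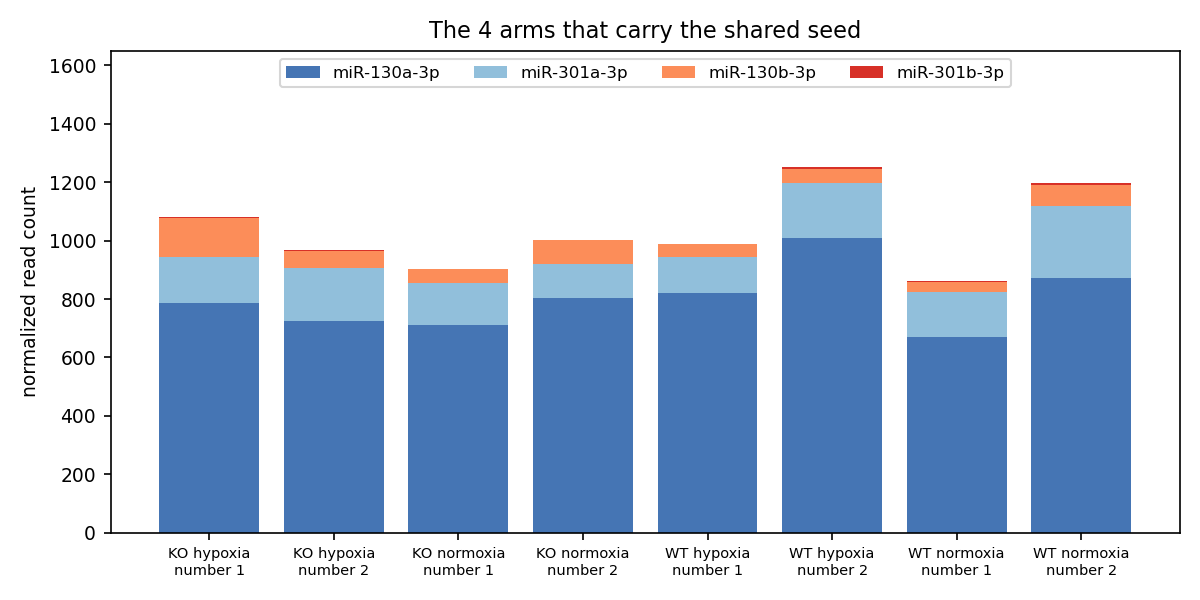
Stacked normalized read counts (axis from 0) of miR-130a-3p, miR-301a-3p, miR-130b-3p and miR-301b-3p in each of the 8 libraries, with KO libraries left of WT and hypoxia left of normoxia. The sum lies between 862 and 1253, and miR-130a-3p fills most of every bar.

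In WT cells no change of the family with hypoxia was detectable. Neither arm of miR-210 passed in this comparison. The log2 difference was 2.55 for miR-210-3p (SE 0.50, limma adjusted p = 0.332) and 3.63 for miR-210-5p (SE 0.60, limma adjusted p = 0.235). As differences of this size were not called, the comparison cannot show that smaller ones were absent. The arm miR-130a-3p held 915 ± 132 in WT hypoxia and 772 ± 143 in WT normoxia (SD, n = 2 each), a log2 difference of 0.25 (SE 0.27, 95% interval −0.36 to 0.86, limma adjusted p = 1). The arm miR-301a-3p held 155 ± 48.1 in WT hypoxia and 200 ± 67.2 in WT normoxia, a log2 difference of −0.36 (SE 0.36, interval −1.15 to 0.44). The difference was 0.08 for miR-130a-5p, 0.09 for miR-301a-5p and −0.11 for miR-130b-3p. It was −0.01 for miR-130b-5p, whose sign turned under quantile normalization. The groups overlapped for all 6 arms tested, where 25.8% of the 1540 features tested had groups that did not overlap. None of the 6 passed the test, against a background of 0% of all features (limma, adjusted p under 0.05). At an unadjusted p under 0.05 there were 0 of the 6 arms and 1.3% of all features.

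In KO cells 5 of the 6 tested arms had a higher mean log2 value in hypoxia than in normoxia, and none of the differences passed. The arm miR-130b-5p held 153 ± 15.6 in KO hypoxia and 105 ± 42.4 in KO normoxia, with a log2 difference of 0.60 (SE 0.36, interval −0.21 to 1.40, limma adjusted p = 0.850). Within number 1 the difference was 0.07, and within number 2 it was 1.12. The arm miR-130b-3p held 94.5 ± 51.6 in KO hypoxia and 65.5 ± 23.3 in KO normoxia, a log2 difference of 0.45 (SE 0.50). This was 1.40 within number 1 and −0.49 within number 2, and −0.13 without KO hypoxia number 1. The differences were 0.42 (SE 0.29) for miR-130a-5p, 0.40 (SE 0.36) for miR-301a-3p and 0.32 (SE 0.43) for miR-301a-5p. For miR-130a-3p the difference was −0.0023 (SE 0.27, interval −0.61 to 0.61), and its sign turned under quantile normalization. Beside these values, the summed muscle arms held 206 to 235 in KO hypoxia and 116 to 142 in KO normoxia. The neural arms held 886 to 944 in KO hypoxia and 568 to 742 in KO normoxia. The sums of the fibroblast, endothelial, haematopoietic and epithelial arms overlapped between these groups. The part of any of these marker arms was not tested. The median over the 6 arms was 0.41, beside 0.24 over the 579 microRNAs tested and 0.02 over all features tested. The lower quartile over the 579 microRNAs was 0.004, so most of them also had a higher mean log2 value in KO hypoxia. The groups did not overlap for 2 of 6 arms, miR-301a-3p and miR-130b-5p, both higher in KO hypoxia, where 28.9% of all features had groups that did not overlap and 15.8% were higher in this way. None of the 6 was called, against a background of 0% (limma), and at an unadjusted p under 0.05 there were 0 of the 6 arms and 5.39% of all features.

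The response was compared between the genotypes by the interaction, the change in KO minus the change in WT. Of the 6 arms it was largest for miR-301a-3p, at 0.76 (SE 0.50, interval −0.36 to 1.88, limma adjusted p = 1.00), with 0.47 within number 1 and 1.05 within number 2. It was 0.60 (SE 0.51) for miR-130b-5p, 0.56 (SE 0.71) for miR-130b-3p, 0.34 (SE 0.41) for miR-130a-5p and 0.23 (SE 0.60) for miR-301a-5p. The abundant miR-130a-3p had −0.25 (SE 0.39, interval −1.12 to 0.61). When KO hypoxia number 1 was left out, the value for miR-130b-3p was −0.016. None of the arms was called, against a background of 0%, and 0 of the 6 arms and 2.4% of all features reached an unadjusted p under 0.05 (limma). The median of the 6 was 0.45, beside 0.25 over all microRNAs tested. The interaction shares its libraries with both hypoxia comparisons, so it adds no measurement to them.

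In normoxia the family did not differ detectably between KO and WT cells. The arm miR-301a-3p held 129 ± 19.8 in KO normoxia and 200 ± 67.2 in WT normoxia, a log2 difference of −0.59 (SE 0.36, interval −1.39 to 0.20, limma adjusted p = 0.513). It was −0.09 within number 1 and −1.10 within number 2. The arm miR-130a-5p held 438 ± 104 in KO normoxia and 551 ± 31.8 in WT normoxia, a log2 difference of −0.35 (SE 0.29). The differences were 0.33 (SE 0.50) for miR-130b-3p and 0.31 (SE 0.36) for miR-130b-5p. They were −0.16 for miR-301a-5p and −0.02 for miR-130a-3p, and both turned sign when libraries were scaled to the same microRNA total, the second also with TMM factors. For miR-130a-3p the interval ran from −0.63 to 0.59 (log2). The groups did not overlap for 2 of 6 arms, miR-130a-5p and miR-301a-3p, both lower in KO, where 41.9% of all features had groups that did not overlap and 20% were lower in this way. None of the 6 passed (limma), against 0.0649% of all features, while 0 of the 6 arms and 13.4% of all features reached an unadjusted p under 0.05. The summed neural arms held 568 to 742 in KO normoxia and 937 to 1053 in WT normoxia. The haematopoietic arms held 1025 to 2245 in KO normoxia and 2298 to 2367 in WT normoxia, and the endothelial arms held 102 to 132 in KO normoxia and 143 to 191 in WT normoxia. The sums of the fibroblast, epithelial and muscle arms overlapped between these groups. The part of any of these marker arms in the differences was not tested.

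In hypoxia both arms of miR-130b were higher in KO than in WT libraries, short of the threshold. The arm miR-130b-5p held 142 and 164 in KO hypoxia and 71 and 91 in WT hypoxia, so the groups did not overlap. Its log2 difference was 0.92 (SE 0.36, interval 0.11 to 1.72), with 0.99 within number 1 and 0.84 within number 2. The unadjusted p was 0.0292 and the limma adjusted p over 1540 features was 0.545, with a range of 0.243 to 1.00 over the alternatives. It ranked 82nd of all features tested by p-value. Among the 6 tested arms, this p was the smallest in the 4 pairwise comparisons. The arm miR-130b-3p held 131 and 58 in KO hypoxia and 45 and 48 in WT hypoxia, a log2 difference of 0.89 (SE 0.50, limma adjusted p = 0.746). This came mostly from number 1, with 1.52 within number 1 and 0.27 within number 2, and it was 0.31 when KO hypoxia number 1 was left out and 1.48 when number 2 of that group was. The difference for miR-130b-5p was 1.02 when KO hypoxia number 1 was left out. Beside these values, the summed haematopoietic arms, led by miR-451, held 841 to 1550 in KO hypoxia and 1579 to 3078 in WT hypoxia, and the endothelial arms held 117 to 145 in KO hypoxia and 153 to 174 in WT hypoxia. The sums of the fibroblast, epithelial, muscle and neural arms overlapped between these groups. The part of any of these marker arms in the differences was not tested.

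The other arms differed less between the genotypes in hypoxia. The arm miR-130a-3p held 756 ± 44.5 in KO hypoxia and 915 ± 132 in WT hypoxia, a log2 difference of −0.27 (SE 0.27), and its groups did not overlap. The difference was 0.17 (SE 0.36) for miR-301a-3p, 0.07 (SE 0.43) for miR-301a-5p and −0.01 (SE 0.29) for miR-130a-5p. The sign for miR-301a-5p turned under quantile normalization, and that for miR-130a-5p under TMM factors, quantile normalization and scaling to the microRNA total. In all, the groups did not overlap for 3 of 6 arms, 2 higher and 1 lower in KO hypoxia. Of all features, 35.8% had groups that did not overlap, 19.2% being higher and 16.6% lower in KO hypoxia. None of the 6 was called, against 0.13% of all features, and 1 of 6 had an unadjusted p under 0.05, against 9.03% of all features.

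**Figure D3:**
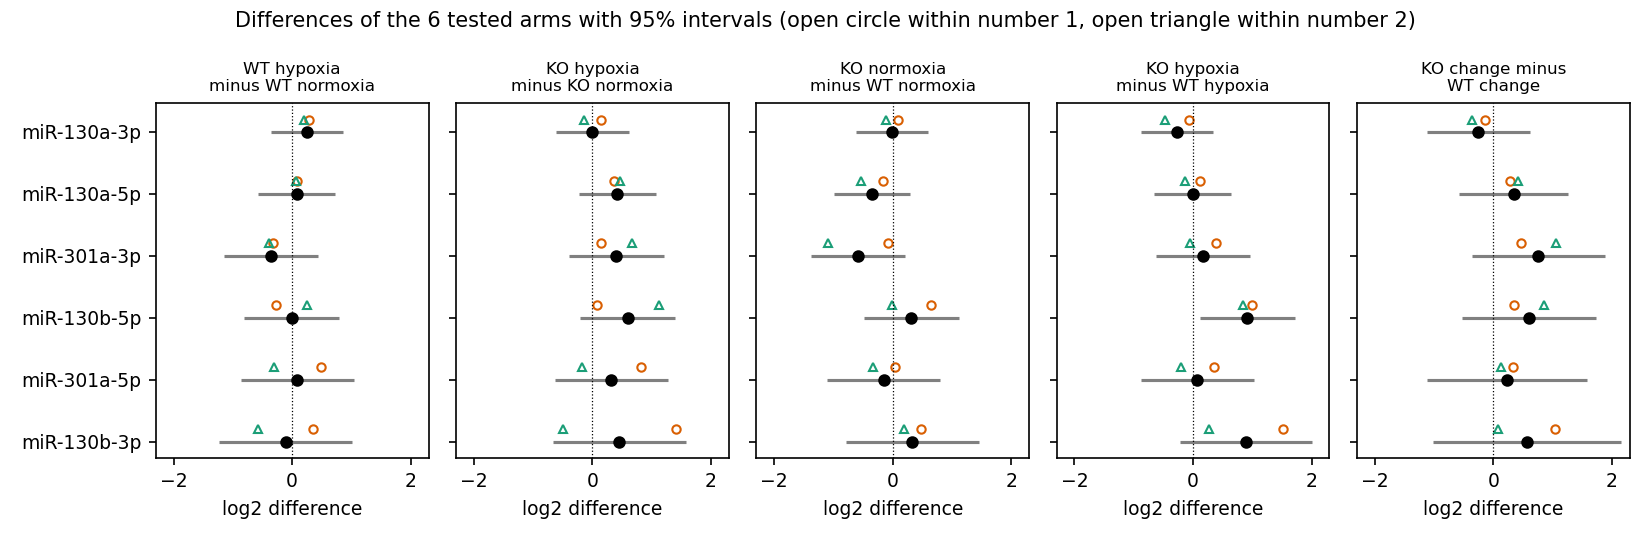
Log2 difference with its 95% interval (black point and line) of the 6 tested arms in 5 comparisons, with the difference within number 1 (open circle) and within number 2 (open triangle) above each line. In the comparison of KO hypoxia with WT hypoxia the interval of miR-130b-5p, 0.11 to 1.72, leaves out 0, and those of the other arms include it.

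Averaged over both oxygen levels, miR-130b-5p had a log2 difference of 0.61 between KO and WT (SE 0.25, interval 0.05 to 1.18, unadjusted p = 0.0365, limma adjusted p = 0.248), and miR-130b-3p had 0.61 (SE 0.35, adjusted p = 0.474). The 4 KO libraries ran from 75 to 164 for miR-130b-5p and the 4 WT libraries from 71 to 91, so they overlapped. The difference was −0.21 (SE 0.25) for miR-301a-3p. It was −0.14 for miR-130a-3p, −0.18 for miR-130a-5p and −0.04 for miR-301a-5p, and these 3 turned sign on the microRNA total. None of the 6 arms had groups that did not overlap, where 11.9% of all features did, and none was called, against 0.13% of all features (limma). At an unadjusted p under 0.05 there were 1 of the 6 arms and 17.8% of all features. Averaged over both genotypes, hypoxia minus normoxia gave values between 0.02 for miR-301a-3p, whose sign turned with TMM factors and on the microRNA total, and 0.29 (SE 0.25) for miR-130b-5p. None of the arms had groups that did not overlap, where 1.23% of all features did. None was called, against a background of 0%, and an unadjusted p under 0.05 was found for 0 of the 6 arms and 3.57% of all features (limma).

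Both arms of miR-130a, miR-301a and miR-130b were found at appreciable levels. Over 199 hairpins with both arms listed and a mean of at least 50 on one arm, the median absolute log2 ratio of the arms was 3.69, and in 28 of them (14.1%) the arms were within 2-fold of each other. The mean log2 ratio of 3p over 5p was 0.58 for miR-130a, 1.18 for miR-301a and −0.73 for miR-130b, so the seed-bearing 3p arm was the higher for miR-130a and miR-301a and the lower for miR-130b. Of the 199 hairpins, 12 had a smaller absolute ratio than miR-130a, 18 than miR-130b and 32 than miR-301a. Of these 3 ratios that of miR-130b varied most, from 0.354 in KO hypoxia number 2 to 1.09 in KO normoxia number 2, with an SD of 0.65 (log2) over the 8 libraries, where the median SD over the hairpins was 0.46.

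The ratio of miR-130a differed between the library numbers within every group. It was 1.19 and 1.43 in KO hypoxia, 1.39 and 2.21 in KO normoxia, 1.35 and 1.83 in WT hypoxia, and 1.17 and 1.65 in WT normoxia, with number 2 higher in 4 of 4 groups. The ratio was higher in number 2 in all 4 groups for 11.6% of the 199 hairpins and lower in all 4 for 11.1%. The ratios of miR-301a and miR-130b were higher in number 2 in 2 of 4 groups each. Across the 8 libraries the log2 values of miR-130a-3p and miR-130a-5p had r = 0.02 (Pearson) and rho = 0.07 (Spearman), and those of the arms of miR-130b had r = 0.27 and rho = 0.26. For miR-301a, r was 0.46 and rho 0.57. These are descriptions over 8 libraries that share their scaling, with no test.

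**Figure D4:**
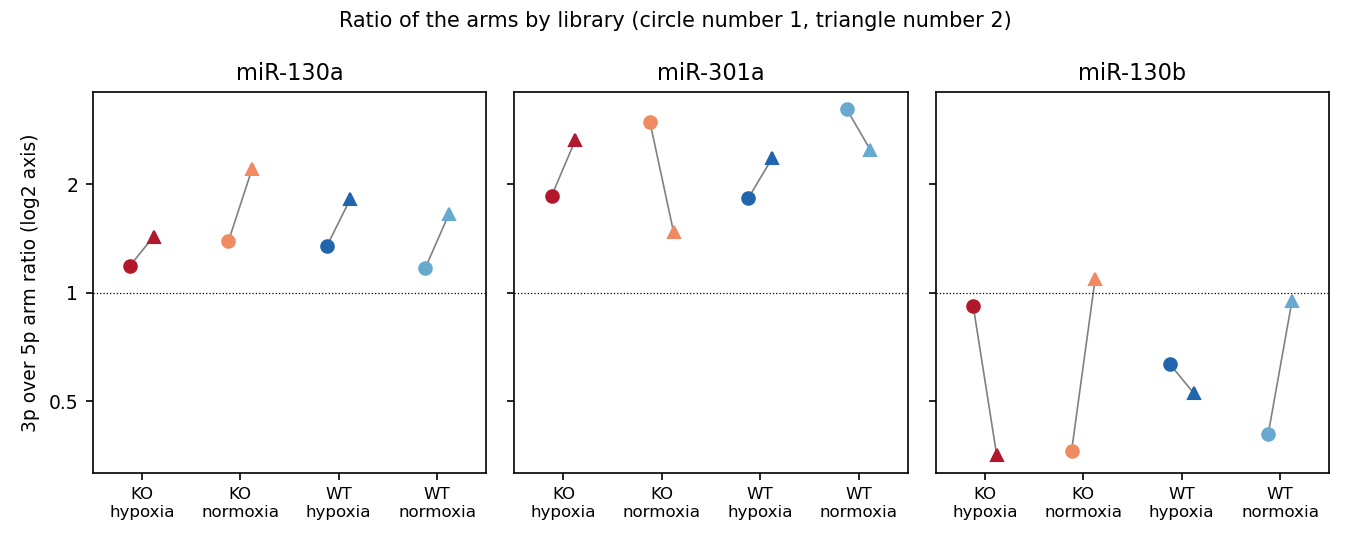
Ratio of the 3p to the 5p arm (log2 axis) of miR-130a, miR-301a and miR-130b by library (circle number 1, triangle number 2), with a grey line joining the 2 libraries of a group and a dotted line at a ratio of 1. For miR-130a the triangle lies above the circle in all 4 groups, and for miR-130b all ratios but 1 lie below 1.

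The microRNAs with the most similar profiles were sought among 388 other microRNAs with a mean of at least 50, by Pearson's r of log2 values over the 8 libraries. The profile of miR-130a-3p was most like those of miR-503-3p (r = 0.81, rho = 0.76), miR-30d-5p (r = 0.79) and miR-669m-5p (r = 0.78). That of miR-301a-3p was most like miR-29c-3p (r = 0.93, rho = 0.93), miR-669d-5p (r = 0.89) and miR-27a-3p (r = 0.88). For miR-130b-3p they were miR-27b-5p (r = 0.79, rho = 0.81), miR-380-5p (r = 0.78) and miR-181a-1-3p (r = 0.78). No other family member was among the 3 nearest of any. The highest correlation within the family was that of miR-130a-3p with miR-301a-5p (r = 0.72, rho = 0.71), and miR-130a-3p and miR-301a-3p had r = 0.34. The median r over the candidates was 0.30 for miR-130a-3p, 0.40 for miR-301a-3p and −0.05 for miR-130b-3p. The libraries share their scaling and depth, and no test was made.

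The miR-148 and miR-152 microRNAs, whose seed holds 6 of the 7 letters shifted by 1 base, were more abundant than the family in every library. The 3p arms of miR-148a, miR-148b and miR-152 summed to 9483 and 13200 in KO hypoxia, 7740 and 9756 in KO normoxia, 8172 and 13591 in WT hypoxia, and 8828 and 15304 in WT normoxia, which is 8.26 to 13.7 times the seed-bearing arms of the family. None of these 3 arms passed in any comparison, where 0% to 0.13% of all features did (limma). Among other microRNAs often described with hypoxia, 33 of 35 listed arms were tested. Of these 33, 0 were called in any comparison, beside the same share of all features. Their median log2 difference was −0.02 for WT hypoxia minus WT normoxia (14 higher, 19 lower) and 0.28 for KO hypoxia minus KO normoxia (29 higher, 4 lower), beside 0.02 over all features tested in each, and 0.24 over all microRNAs tested in the second. It was −0.42 for KO minus WT in normoxia (2 higher, 31 lower) and −0.06 in hypoxia (13 higher, 20 lower), beside −0.28 in normoxia and −0.05 in hypoxia over all microRNAs tested, and −0.06 in normoxia and −0.04 in hypoxia over all features tested. At an unadjusted p under 0.05 there was 1 of the 33 arms for hypoxia in KO, beside 5.39% of all features (limma). There were 0 of the 33 in the other 3 pairwise comparisons. Of all features, 1.3% were under 0.05 for hypoxia in WT and 13.4% for KO normoxia against WT normoxia. For KO hypoxia against WT hypoxia the share was 9.03%.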

How the data were processed

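Small RNA was sequenced from 8 libraries. Per the labels' protocols, the cells were extracted with miRNeasy reagents and the libraries built with a NEBNext kit meant for SOLiD sequencing. The deposited values, entered here as a score, are normalized read counts rounded to whole numbers, as the authors made them. Not given in the sources used here are the aligner, build, feature set, normalization and treatment of reads that match several features. Units per read were estimated from the spacing of low values, which gives an estimated 7573489 to 13482280 assigned reads per library.

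Features with at least 10 in at least 2 libraries were tested (1540 of 2403). The R package limma 3.58.1 (R 4.3.3) was fitted to log2(value + 1) with an intensity trend and 4 group means over 8 libraries (4 residual and 5.64 prior degrees of freedom). Fold changes are on this scale and understate those of low features. The Benjamini-Hochberg adjustment ran over all features tested, with a threshold of 0.05, and intervals are 95%. The fit was tested on simulated data with no shared effect of library number. That check did not require differences as small as those of the family to be called. Of the columns, 0 were left unused. TMM factors were computed by the published formula. Sequences are from RefSeq (GRCm38.p6; 4 of 4 hairpins and 7 of 8 arms matched) and gene positions from GENCODE M21.

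The members, the lists, the filter and the contrasts were chosen with earlier results of these data known. Named features are the family, miR-210, 3 fixed lists (same seed or neighbours, shifted seed, hypoxia), cell type markers and the 3 microRNAs most like each tested 3p arm. The alternatives were other pseudocounts, filters, scalings, a fit without the trend, microRNAs alone, the groups of a contrast alone, the replicate number as a block, and leaving out each library in turn.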

Additional observations from a re-analysis of the deposited data

How the results depend on the processing

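No arm of the family was called in any comparison under any alternative (0 in 137 fits and comparisons, limma), and the smallest adjusted p of an arm was 0.150 (miR-130b-5p, KO minus WT averaged over oxygen levels). Of 780 alternative values of the 42 arm differences, 730 kept their direction and 50 turned, 36 of these on leaving out a library. Many of the 780 could not turn. Changing the filter, the trend, the block or the set of features or groups fitted leaves the difference itself as it was. So does leaving out a library that is not in the comparison. The count of 730 is therefore no measure of how stable the directions are. The shared number of the libraries is not stated to mark a culture or day. Deviations by number correlated between groups (r from 0.15 to 0.55), a hint from the data. With the replicate block the count of all features called was 8 in place of 0 for hypoxia in WT, 3 in place of 0 for the averaged hypoxia change and 91 in place of 2 for the averaged genotype difference, with 0 arms of the family among them. That last count was also 13 with TMM factors, 85 on the microRNA total, and 2 to 29 on leaving out a library (29 without WT hypoxia number 2, 4 without KO hypoxia number 2). For hypoxia in WT it was 1 with a pseudocount of 8 and 1 with a mean of at least 50. For KO against WT in normoxia it was 1, against 2 without the trend and 1 to 2 on leaving out a library (2 without WT hypoxia number 2). The cause of these moves was not tested.

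Scaling to the microRNA total shifted the median of all features by −0.14 for hypoxia in KO, 0.23 for KO minus WT in normoxia, 0.15 in hypoxia and 0.19 averaged, so differences on that scale are relative to these shifts. Signs that turned with scaling were as follows (log2). On the microRNA total, KO minus WT in normoxia was 0.22 for miR-130a-3p and 0.079 for miR-301a-5p, in hypoxia 0.15 for miR-130a-5p, averaged 0.052 for miR-130a-3p, 0.017 for miR-130a-5p and 0.15 for miR-301a-5p, and the averaged hypoxia change of miR-301a-3p was −0.078. With TMM factors the values were 0.0094 for miR-130a-3p (KO minus WT, normoxia), 7e-04 for miR-130a-5p (KO minus WT, hypoxia) and −0.0054 for miR-301a-3p (averaged hypoxia change). After quantile normalization they were 0.028 for miR-130b-5p (hypoxia in WT), 0.044 for miR-130a-3p (hypoxia in KO), and 0.058 for miR-130a-5p and −4e-04 for miR-301a-5p (KO minus WT, hypoxia).

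Leaving out each library in turn gave ranges that cross 0 as follows. For hypoxia in WT they were −0.18 to 0.17 for miR-130b-5p, −0.44 to 0.62 for miR-301a-5p and −0.62 to 0.40 for miR-130b-3p. For hypoxia in KO they were −0.026 to 0.66 for miR-301a-5p, −0.13 to 1.03 for miR-130b-3p and −0.091 to 0.086 for miR-130a-3p. For KO minus WT in normoxia they were −0.18 to 0.84 for miR-130b-3p, −0.21 to 0.17 for miR-130a-3p, −0.68 to 0.37 for miR-301a-5p and −0.11 to 0.73 for miR-130b-5p. In hypoxia they were −0.20 to 0.19 for miR-130a-5p, −0.15 to 0.49 for miR-301a-3p and −0.074 to 0.22 for miR-301a-5p. For the interaction they were −0.30 to 0.76 for miR-301a-5p and −0.016 to 1.15 for miR-130b-3p. For the averaged hypoxia change they were −0.15 to 0.20 for miR-301a-3p, −0.061 to 0.47 for miR-301a-5p and −0.12 to 0.46 for miR-130b-3p, and for the averaged genotype difference −0.30 to 0.22 for miR-301a-5p. Where a group was left with 1 library, it was assumed to vary like the others. As a share of the microRNA total the family took 0.0235% in KO hypoxia, 0.0219% in KO normoxia, 0.0210% in WT hypoxia and 0.0204% in WT normoxia. Depth limits the arms of miR-301b.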

Other observations

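The arm miR-130a-5p was lower in number 2 than in number 1 in 4 of 4 groups, a pattern shared by 7.94% of the 579 microRNAs tested, while miR-130a-3p was higher in number 2 in 3 of 4 groups. Across the 579 microRNAs, 27.5% were higher in number 2 in all 4 groups. These counts compare the values as deposited, whose library totals were also higher in number 2 in every group. The totals of numbers 1 and 2 were 9649531 and 11136363 in KO hypoxia and 8618630 and 10324869 in KO normoxia. They were 9928948 and 12167438 in WT hypoxia and 9807260 and 11453341 in WT normoxia. The part of the totals in these counts was not tested. What the number stands for is not given in the labels, and its part in the arm ratios was not tested.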
